A study of Drosophila melanogaster with 4 samples.

Results

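The regions described here are H3K9me1 clusters at the ends of 4 long chromosome arms of Drosophila melanogaster. H3K9me1 is histone H3 carrying a single methyl group on lysine 9, and a cluster is a region that the authors called as significantly enriched for it. All clusters of the combined replicate-set list that start in the terminal 1 Mb of X, 2L, 3L or 3R were taken, counted from the end of the arm that faces the telomere. That gave 430 of the 13114 clusters in the list: 119 on X, 107 on 2L, 130 on 3L and 74 on 3R. The 2 lists of single replicates held 190 and 188 clusters in the same 4 Mb, of 5480 and 6062 in all. The end of 2R was not analysed here.

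The mark was mapped by chromatin immunoprecipitation and sequencing (ChIP-seq) in whole wild-type embryos of the Oregon-R strain, aged 14 to 16 h, with a new lot of an H3K9me1 antibody. The study has 4 samples, namely ChIP replicates 1 and 2 and an input sample for each, where input is chromatin that was not precipitated. All 4 share the strain, the genotype and the age, and embryos of unstated sex and many cell types are mixed in each. Whether the 2 replicates come from separate collections of embryos is not said in the labels, so their spread may be technical only.

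Fly telomeres are not made by telomerase. Arrays of the retrotransposons HeT-A, TAHRE and TART cap the chromosome ends, and blocks of telomere-associated repeats lie between them and the first genes. HP1, the heterochromatin protein that binds higher methylation states of H3 lysine 9, is part of the cap, and transgenes placed close to an end can be silenced, which is called the telomeric position effect. In the gene order of the RefSeq annotation (release 6 of the genome, whose coordinates were not used here), the outermost genes of 2L are l(2)gl, a tumour suppressor needed for cell polarity, and Ir21a, an ionotropic receptor. Those of 3L are mthl8 and CG43149, followed by Lsp1gamma, a larval serum protein. On 3R they are Map205, a microtubule-associated protein, mod and krz, the fly non-visual arrestin. Near the tip of X lies G9a, which encodes a methyltransferase acting on this same lysine. The clusters below are placed on FlyBase release 5, as the file headers state. No cluster was assigned to a gene, because no annotation of that release was used here.

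The ends did not share a direction relative to their arms. The terminal 1 Mb of X carried less of the mark than the rest of X in both replicates, and those of 2L and 3L carried more in both. At the end of 3R the replicates went opposite ways. On X, clusters covered 11.4% of the terminal bases in replicate 1 and 12.0% in replicate 2, against 14.8% and 18.3% of the rest of the arm. The mean difference was -4.86 ± 2.08 percentage points (SD, n = 2), a ratio of 0.713 ± 0.083. On 3L the end was covered at 14.4% and 11.5%, against 8.03% and 9.06% of the rest. The excess was 4.41 ± 2.78 points (SD, n = 2) or 1.53-fold ± 0.37, the widest of the 4 ends at this length. On 2L the end was covered at 9.61% and 10.3%, against 7.63% and 9.34%, so the excess was smaller, at 1.47 ± 0.73 points (SD, n = 2). On 3R the end was covered at 7.65% and 6.83%, against 6.68% and 7.62%. The mean difference there, 0.09 ± 1.25 points (SD, n = 2), was far below its spread. The order of the autosomal ends depended on the length taken. With a terminal 500 kb the excess was widest on 3R, at 3.47 ± 1.70 points, and fell below its spread on 3L (0.43 ± 2.10) and 2L (0.93 ± 1.85; SD, n = 2). With a terminal 2 Mb it was 2.60 ± 1.64 points on 3L and 0.036 ± 1.13 on 2L. X kept its deficit at both lengths, at -6.48 ± 0.94 and -4.67 ± 1.62 points.

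An exact permutation test that flips the signs of the 2 replicates has a smallest two-sided p of 0.5, and X, 2L and 3L each gave that value. None of these differences can therefore pass a test across samples, and they stand as descriptions. Pooled, the 4 ends were covered at 10.8% in replicate 1 and 10.2% in replicate 2, with 9.09% and 10.8% in the rest of the same arms. The pooled difference had opposite signs in the replicates, at 1.68 and -0.67 points. Pooled without X, the 3 autosomal ends lay above the rest of their arms in both replicates, at 10.6% against 7.41% and 9.55% against 8.61%. The mean excess was 2.04 ± 1.57 points (SD, n = 2). By itself the end of 3R lay below its arm in replicate 2, at 6.83% against 7.62%. The combined list covers more bases and comes from the same samples. In it the ends stood at 27.8% on X, 27.1% on 2L, 33.7% on 3L and 17.4% on 3R, against 37.8%, 20.8%, 21.5% and 18.7% of the rest of these arms.

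**Figure D1:**
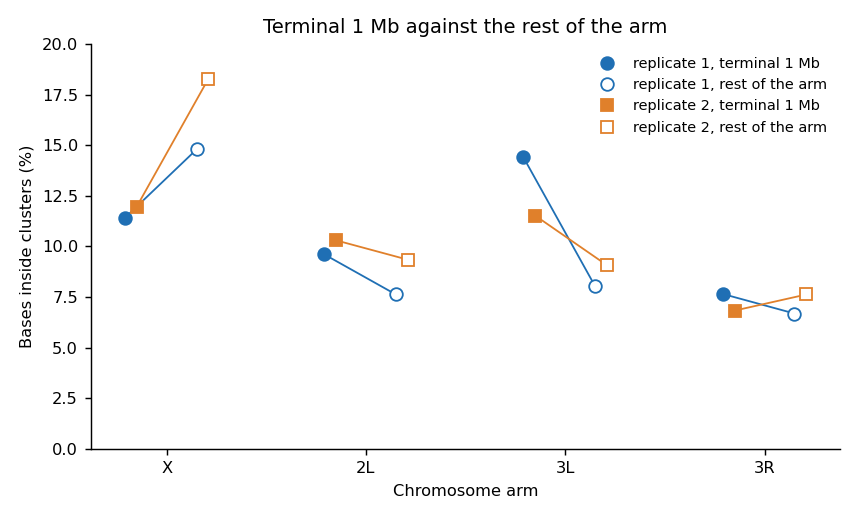
Percent of bases inside H3K9me1 clusters (vertical axis) in the terminal 1 Mb (filled) and in the rest of the same arm (open) for X, 2L, 3L and 3R; each line joins the values of 1 ChIP replicate. The lines climb towards the rest of the arm on X and descend on 2L and 3L. On 3R replicate 1 descends and replicate 2 climbs.

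Each end was also placed among all full 1 Mb windows of its own arm. The end of X ranked 19th of 22 windows in replicate 1 and 21st of 22 in replicate 2, counted from the most covered. X windows had a median of 14.6% and 17.5%. The neighbouring megabase of X was nearly as low in replicate 1, at 11.5%, and stood at 13.5% in replicate 2. The end of 3L ranked second of 24 in replicate 1 and seventh of 24 in replicate 2. Its neighbouring megabase was lower, at 9.08% and 9.45%. The end of 2L ranked 5 and 7 of 23, with 7.34% and 7.07% in the next megabase. The end of 3R ranked 6 and 11 of 27, with 4.99% and 5.91% in the next megabase. The 3 autosomal ends thus lay above the median window of their arms in both replicates, though by 0.315 points on 3R in replicate 2.

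**Figure D2:**
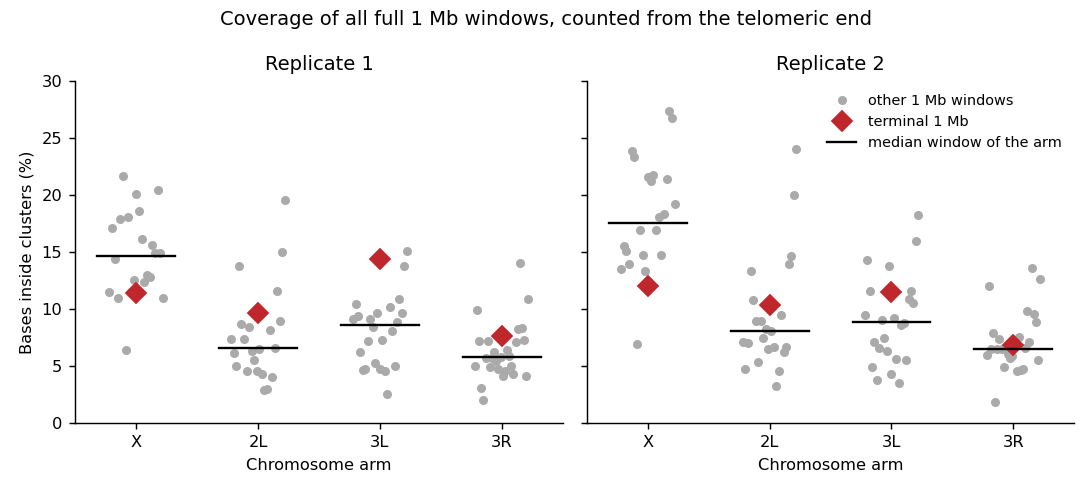
Percent of bases inside clusters (vertical axis) for every full 1 Mb window of X, 2L, 3L and 3R in each ChIP replicate. Grey points are the other windows, placed from left to right by distance from the telomeric end, red diamonds the terminal 1 Mb and black lines the median window of the arm; the diamond lies below the line on X and above it on 2L, 3L and 3R in both panels.

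Within the terminal megabase the mark was uneven, and the replicates were alike in how much each 100 kb step held. Within a step they could cover different bases. The step of 3L from 700 to 800 kb was covered at 15.9% and 12.3%, with 2.44% covered in both. That of 3R from 300 to 400 kb was covered at 33.5% and 34.2%, with 28.1% covered in both. Coverage in steps of 100 kb ran from 0% to 33.5% in replicate 1 and from 0% to 34.2% in replicate 2. Across the 40 steps of the 4 ends Pearson's r between replicates was 0.89 and Spearman's rho 0.88. Within single ends of 10 steps r was lowest on 2L, at 0.80, and highest on 3R, at 0.98. The order differed by rank: rho was 0.83 on X, 0.90 on 2L, 0.94 on 3L and 0.93 on 3R. Steps of 1 arm are neighbours and share their libraries, so these coefficients describe agreement only. Where steps are ranked below, the mean of the replicates sets the order.

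**Figure D3:**
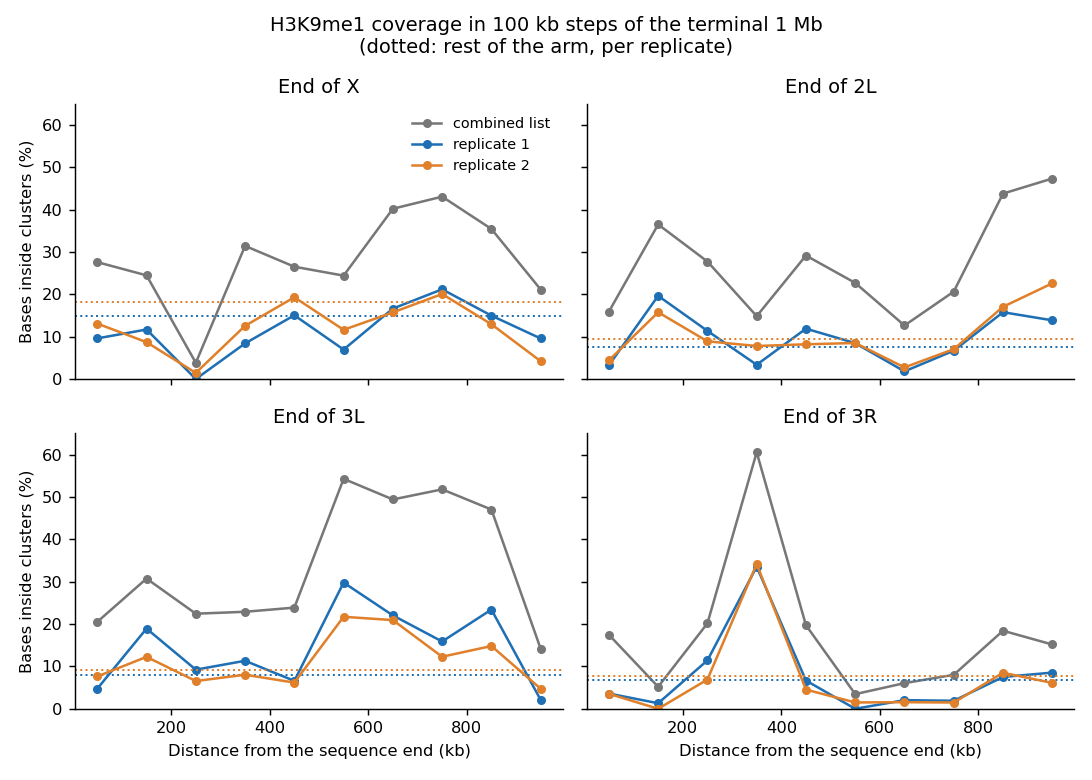
Percent of bases inside clusters (vertical axis) in 100 kb steps by distance from the sequence end in kb (horizontal axis) for X, 2L, 3L and 3R. Lines are replicate 1, replicate 2 and the combined list, and dotted lines the rest of the arm in each replicate; the single peak of 3R reaches 33.5% and 34.2% in the replicates, and the low step of X reaches 0% and 1.45%.

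On X the first cluster began close to the end of the sequence. It ran from 5858 to 8188 (2331 bp, score 0.69), and replicates 1 and 2 covered 97.9% and 85.5% of it. The score is the authors' own value for each cluster, read here as a log2 ratio, so that 2 raised to it gives a fold enrichment. The outermost 100 kb of X were covered at 9.60% and 13.1%. A poor stretch followed. The step from 200 to 300 kb held 3 members, and its coverage was 0% in replicate 1 and 1.45% in replicate 2. In replicate 1 no cluster lay between 183458 and 345592, a gap of 162 kb, the longest of that replicate on the 4 ends. The longest stretch of X without a combined cluster lay inside it, 61.0 kb from 241728 to 302759. The other sparse steps of X were the innermost, from 900 to 1000 kb, at 9.57% and 4.21%, and that from 500 to 600 kb, at 6.95% and 11.6%. Coverage was highest from 700 to 800 kb, at 21.2% and 20.1%. The steps from 400 to 500 kb (15.0% and 19.3%) and from 600 to 700 kb (16.6% and 15.7%) came next. In 6 of the 10 steps of X both replicates lay below the rest of the arm, and in 2 both lay above it.

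The strongest X members were taken among those that both replicates cover over at least 50%. The highest-scoring, from 771262 to 775959, had a score of 0.92, a 1.89-fold ratio, and highest replicate scores of 0.99 and 1.01. The next ran from 806476 to 810142 (score 0.90, covered at 71.2% and 94.8%) and from 417430 to 422003 (score 0.88, covered at 92.2% and 93.8%). The longest were 6603 bp from 744714 to 751316 (score 0.87) and 6602 bp from 434066 to 440667 (score 0.75). Scores far above these were also listed on X, but the replicates did not share them. The member with the highest score of all 430 ran from 107121 to 108934 and scored 3.29 (9.80-fold), and neither replicate list had a cluster there. The same held for X from 327606 to 328613 (score 1.97) and from 135139 to 137817 (score 1.12), which were picked out after their values were seen. X from 100109 to 102410 (score 1.07) was touched in replicate 1 only, at 1.48. Of the 5 members with a score above 1, 4 lay on X, and 0 of these 4 were touched by both replicates. Both touched 23.8% of all combined clusters, and the share among those scoring above 1 was not counted. Combined scores were higher along all of X, with a median of 0.57 in its rest against 0.48 in that of 2L, 3L and 3R. The count is therefore not a result about the end of X.

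On 2L the first member ran from 21493 to 23779 (score 0.49) and was covered at 75.1% and 67.6% by the replicates. The outermost 100 kb were the second least covered step, at 3.24% and 4.40%. The least covered was that from 600 to 700 kb, at 1.81% and 2.74%, and the third least that from 300 to 400 kb, at 3.37% and 7.80%. The 3 most covered steps were those from 100 to 200 kb, from 800 to 900 kb and from 900 to 1000 kb. The step from 100 to 200 kb was covered at 19.6% and 15.8%, that from 800 to 900 kb at 15.8% and 17.1%, and the innermost at 13.9% and 22.6%. In 4 of the 10 steps both replicates lay below the rest of the arm, and in 3 both lay above it. Without the most covered step, the innermost, the end of 2L was covered at 9.14% and 8.93%. The rest of the arm stood at 7.63% and 9.34%, so the replicates then differed in direction. The mean difference was 0.55 ± 1.36 points (SD, n = 2), in an alternative chosen after seeing the data. The longest stretch free of combined clusters, from 367198 to 421347, measured 54.2 kb.

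The top 2L member by score ran from 752161 to 755813 (score 0.92, 1.90-fold). The replicates covered 86.1% and 95.6% of it, but their scores there were apart, at 0.71 and 1.16. The second by score was also the longest that both replicates cover over at least 50%, 7433 bp from 933232 to 940664 (score 0.80), with 81.7% and 82.8% covered. The third ran from 560587 to 563935 (score 0.71), and the second longest from 176423 to 182091 (5669 bp, score 0.68). A longer member from 878770 to 886728 (7959 bp) had 29.3% of its length covered in replicate 1 and 71.9% in replicate 2.

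The end of 3L began with the widest empty stretch at a tip. No list had a cluster in the first 52.3 kb. Assembly gaps and repeats to which reads cannot be assigned count as uncovered, and their length there was not measured. The first member, from 52256 to 53545 (score 0.45), had 94.9% of its length in clusters of replicate 1 and none in those of replicate 2. The outer 500 kb of the terminal megabase were covered at 10.2% and 8.13%, and the inner 500 kb at 18.6% and 14.9%. The rise came at 500 kb: the step from 400 to 500 kb stood at 6.58% and 6.18%, and the next at 29.8% and 21.7%. Coverage was 22.0% and 20.9% from 600 to 700 kb and 23.4% and 14.8% from 800 to 900 kb. It then dropped to 2.09% and 4.73% in the innermost step, the least covered of 3L. The outermost step stood at 4.75% and 7.64%. In 5 steps both replicates exceeded the rest of the arm, and in 3 both lay below it.

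The strongest 3L member was also among the longest. It ran from 682502 to 690783 (8282 bp, score 0.92, 1.89-fold), with 92.7% and 97.9% covered and replicate scores of 1.03 and 0.91. The next by score were 295464 to 300437 (score 0.80, covered at 80.7% and 80.3%) and 877834 to 881905 (score 0.78). The longest that both replicates cover over at least 50% was 8762 bp from 617037 to 625798 (score 0.63), where replicate 1 called 2 separate clusters and replicate 2 called 3. The longest member of 3L in all, 12398 bp from 845335 to 857732, was likewise split into 3 and 2 clusters, and the replicates covered 58.1% and 37.0% of it.

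On 3R a single 100 kb step held much of the mark. The step from 300 to 400 kb was covered at 33.5% and 34.2%, the highest value of the 40 steps in either replicate, and made up 43.8% and 50.1% of the covered bases of this end. Without it the end of 3R was covered at 4.77% and 3.79%, less than the rest of the arm in each replicate. The mean difference was then -2.87 ± 1.36 points (SD, n = 2). The step holds the strongest and longest of the 74 members, from 27521042 to 27535168 (14127 bp, score 1.12, 2.17-fold). Each replicate called it as 1 cluster, and they covered 86.4% and 86.5% of it with scores of 1.26 and 1.14. Beside it lay the second longest, from 27506424 to 27518155 (11732 bp, score 0.74), covered at 62.5% and 68.1%. The second by score ran from 27563422 to 27568769 (score 0.82), also in this step. Of the 14 members that start in it, both replicates touched 6 and neither touched 7. Over all combined clusters, both touched 23.8% and neither touched 47.2%. The step was picked for its coverage in these same replicates, so the counts are a description and no test.

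Most other steps of 3R were poor. Coverage was 1.31% and 0% from 100 to 200 kb, 0% and 1.49% from 500 to 600 kb, and 1.89% and 1.48% from 700 to 800 kb. The second and the third most covered steps were those from 200 to 300 kb (11.4% and 6.90%) and from 800 to 900 kb (7.50% and 8.50%). The longest stretch free of combined clusters on the 4 ends lay here, 120 kb from 27266406 to 27386309. Both replicates were empty across it and beyond, with gaps of 161 kb and 141 kb. The first member from the tip ran from 27891825 to 27894279 (score 0.61), its outer edge 10.8 kb from the end, and was covered at 92.1% and 90.8%.

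The outermost 100 kb were less covered than the mean of the other 9 steps of the same end on 2L, 3L and 3R in both replicates. On 2L the values were 3.24% against 10.3% in replicate 1 and 4.40% against 11.0% in replicate 2. On 3L they were 4.75% against 15.5% and 7.64% against 11.9%, and on 3R 3.60% against 8.10% and 3.54% against 7.19%. On X the replicates differed in direction, with 9.60% against 11.6% and 13.1% against 11.8%. Single steps of 2L (600 to 700 kb) and 3L (900 to 1000 kb) were still less covered than the tip in both replicates. So were those of 3R from 100 to 200 kb and from 500 to 800 kb. The mean of the other 9 steps of 3R includes the step from 300 to 400 kb, at 33.5% and 34.2%. The first 50 kb alone were covered at 13.8% and 13.3% on X, 6.47% and 3.09% on 2L, 0% and 0% on 3L, and 7.20% and 4.46% on 3R. No coverage maximum lay at the very tip of any of the 4 arms in these lists.

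Cluster numbers per Mb differed from the rest of the arm in the direction of coverage at each end in each replicate. The replicates shared that direction on X, 2L and 3L, and not on 3R. The end of 3L held 63 and 55 clusters in replicates 1 and 2, against 38.7 and 38.9 per Mb in the rest of the arm. The end of X held 54 and 55, against 64.0 and 72.6 per Mb, and that of 2L held 42 and 51, against 34.9 and 39.9. The end of 3R held 31 and 27, against 30.9 and 34.1 per Mb, a mean difference of -3.52 ± 5.09 per Mb (SD, n = 2), below its spread. The median score at the end of X was 0.81 and 0.70, below 0.83 and 0.78 in the rest of X. On 3R it was 0.71 and 0.70, above 0.70 and 0.67. Weighted by width, the score of 3R was 0.84 and 0.79, against 0.74 and 0.71, a difference of 0.09 ± 0.02 (SD, n = 2) where the medians differed by 0.02 ± 0.01. On 2L (0.72 and 0.66, against 0.71 and 0.67) and 3L (0.71 and 0.65, against 0.71 and 0.67) end and rest lay closer to each other than the 2 replicates did. Median widths at the ends were between 1646 bp and 1943 bp in single replicates. In both replicates they lay below the rest of the arm on X (1943 bp and 1908 bp, against 1945 bp and 2010 bp), 2L (1839 bp and 1646 bp, against 1879 bp and 1886 bp) and 3R (1768 bp and 1729 bp, against 1826 bp and 1894 bp). On 3L they lay on both sides (1884 bp and 1822 bp, against 1788 bp and 1960 bp). Members of at least 5 kb numbered 25 of 430 in the combined list, 5.81% against 8.30% in the rest of the 4 arms. In single replicates the direction was not shared, with 3.16% against 3.01% in replicate 1 and 2.66% against 5.02% in replicate 2. Both replicates touched 23 of the 25 (92.0%), near the 92.7% of all combined clusters of that width. Beyond 500 kb from the end lay 4 of the 7 on X, 6 of the 7 on 2L and 6 of the 7 on 3L, but 0 of the 4 on 3R. Coverage by all combined clusters differed in the same direction. The inner 500 kb stood at 32.8% against 22.8% of the outer on X, and at 29.4% against 24.8% on 2L. On 3L the values were 43.3% against 24.1%, and on 3R 10.2% against 24.6%. These counts are therefore not a result about wide members.

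The replicate lists touched about the same share of terminal members as of clusters elsewhere. Each replicate covered at least 50% of 73 of the 430 members, 17.0%, where the share over all combined clusters was 16.1%. By end these were 23 on X, 18 on 2L, 18 on 3L and 14 on 3R. Both replicates touched 107 members (24.9%, against 23.8% of all combined clusters), and neither touched 195 (45.3%, against 47.2%). Another 64 were touched by replicate 1 alone and 64 by replicate 2 alone. These shares lie near the background and are not a result about the ends. The median score was 0.62 for members touched by both and 0.46 for those touched by neither, and the median widths were 3530 bp and 1424 bp. The combined list comes from the same samples, so this describes the lists and is no test. On 3L replicate 1 alone touched 26 members (20.0%, against 13.6% in the rest of the arm) and replicate 2 alone 16 (12.3%, against 15.2%).

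**Figure D4:**
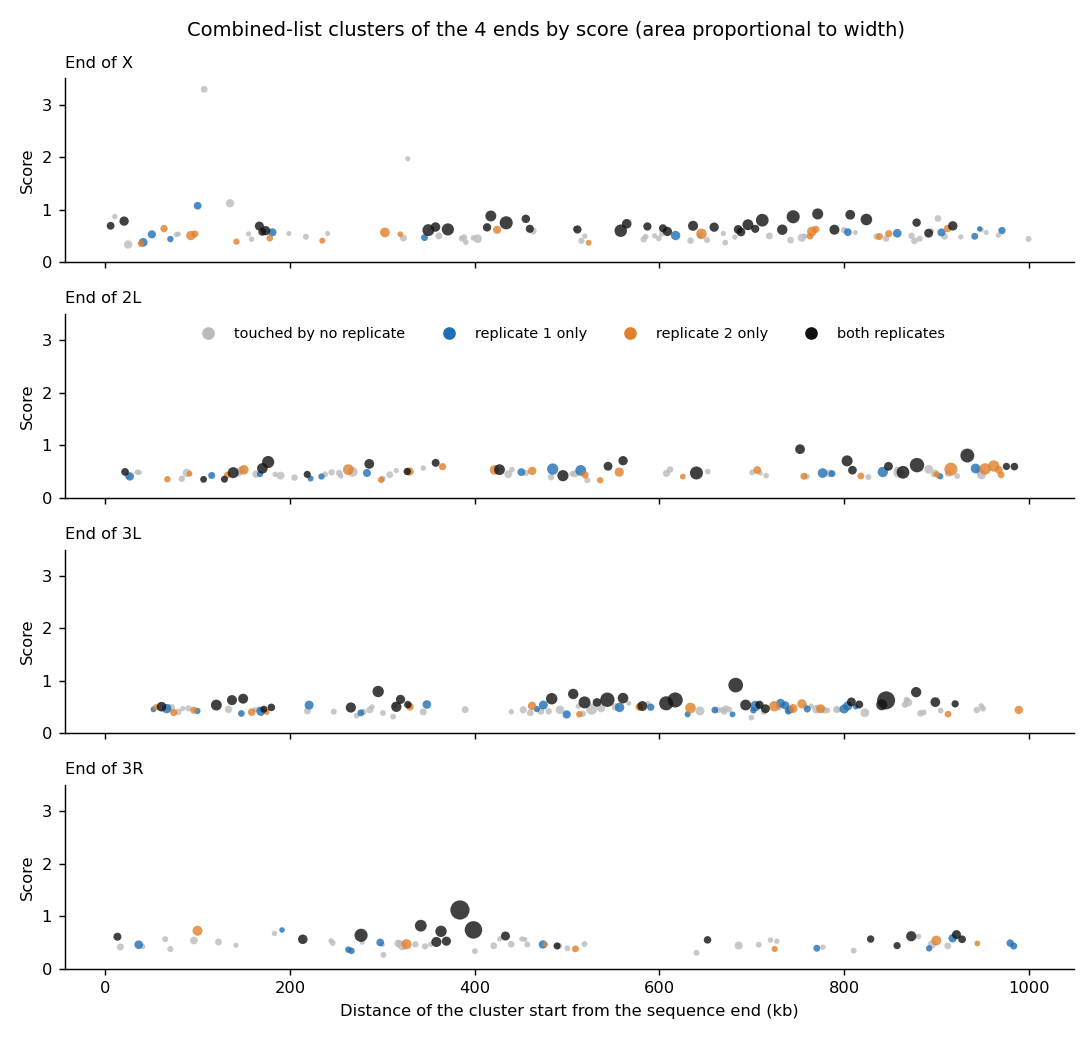
Score of each of the 430 combined-list clusters of the 4 ends (vertical axis) by distance of its start from the sequence end in kb (horizontal axis), with point area proportional to width and colour showing which replicate lists touch it. The highest point, a score of 3.29 on X, is touched by no replicate, and the largest points of 3R, of 14127 bp and 11732 bp, are touched by both.

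Between the replicates, the Jaccard index (bases covered in both over bases covered in either) was 0.484 at the end of 3R, against 0.367 in the rest of that arm. Both replicates covered 47.2 kb of this end. Much of that lay in the step from 300 to 400 kb, where 28.1% was covered in both. The index without that step was not computed. At the end of 2L the index was 0.294, against 0.402. X (0.422 against 0.416) and 3L (0.369 against 0.373) were close to the rest of their arms. In bases covered in both replicates the end of 3L stood at 6.98% against 4.65% of the rest, X at 6.93% against 9.72% and 3R at 4.72% against 3.84%. On 2L this stricter measure reversed the order, with 4.53% at the end against 4.87% in the rest. The single-replicate excess of 2L thus came with less overlap: 57.1% and 49.0% of its terminal clusters touched the other replicate, against 68.8% and 56.4% in the rest of the arm.

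Scores on either side of the 1 Mb limit were alike. The last member inside it started at 999507 on X (score 0.44), 984171 on 2L (0.59), 988943 on 3L (0.44) and 26921665 on 3R (0.43). The first cluster outside started at 1015892 on X (0.44), 1015269 on 2L (0.61), 1005037 on 3L (0.40) and 26902714 on 3R (0.44).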

How the data were processed

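The files used were 3 deposited lists of clusters, 1 for each ChIP replicate and 1 combined. Alignment was by Bowtie 0.12.7, per the submitters' processing notes, and the genome build is FlyBase release 5, per the file headers. Caller, threshold and the making of the combined list were not given in the sources used here. Each input was the control of the list with the same number, per the labels. No input values or read counts were used, so depth is unknown and no counting interval is given. The deposited score has no stated scale. Its power of 2, over a constant (0.982 in replicate 1, 0.978 in replicate 2, 0.980 in the combined list), gave whole-number ratios (denominator at most 500, relative tolerance 1e-11) for 99.8%, 98.9% and 91.2% of clusters. It is therefore read as a log2 ratio.

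A cluster belonged to an end by its start. Coverage is the percent of bases inside clusters, and SDs are over the 2 ChIP replicates. The test was an exact sign-flip permutation over replicates. Named regions followed a rule: per end, the cluster nearest the tip, the 3 highest-scoring and the 2 longest with at least 50% of their length covered in each replicate, the 3 most and least covered 100 kb steps, the longest stretch without a combined cluster and the clusters on either side of the limit. Other regions were named after their values were seen. The members and rules were chosen with earlier results of these data known. Alternatives covered the length of the end, the rest of the arm, thresholds on score, width and overlap, and each list. Functions were tested on simulated data. Python 3.11.15, numpy 2.4.6, pandas 2.3.3, scipy 1.17.1 and matplotlib 3.10.9 were used.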

Additional observations from a re-analysis of the deposited data

Results flagged for a closer look

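At pairs of ends, both replicates moved one way at one end and the opposite way at the other, relative to the rest of the arm. These differences were not tested. In coverage, X lay below the rest of its arm in both replicates where 2L and 3L lay above it, and the gap between the ends was -6.33 percentage points for X minus 2L and -9.27 for X minus 3L. In median score, X and 3L lay below the rest and 3R above it in both replicates, with gaps of -0.0753 for X minus 3R and -0.0353 for 3L minus 3R. On 3L the difference was only -0.00099 in replicate 1 and -0.022 in replicate 2, a mean of -0.012 ± 0.015 (SD, n = 2), below its spread. It reversed on 3L with a terminal 2 Mb (0.0039) and on 3R in the combined list (-0.0023).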

How the results depend on the processing

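Of 48 alternative values of the coverage difference between an end and the rest of its arm, 42 kept their direction, among them all 12 of X and all 12 of 3L. Direction here is the sign of the value alone, whatever its spread. Sizes moved more than directions: with a terminal 500 kb the difference was 0.429 points on 3L, 0.927 on 2L and 3.47 on 3R, with 2 Mb 0.036 on 2L, and among clusters at or above the median score 0.400 on 2L and 1.48 on 3L. With clusters of at least the median width it was 0.721 on 2L and 2.66 on 3L. Each of these values of 2L and 3L lay below its SD over the replicates, with SDs from 0.860 to 3.06 points. Leaving out 1 replicate gave -6.33 to -3.39 points on X, 0.956 to 1.98 on 2L, 2.45 to 6.37 on 3L and -0.796 to 0.966 on 3R. The 2 Mb next to the centromere were also left out of the rest of the arm. The difference was then -4.90 ± 1.72 points on X and 2.58 ± 0.51 on 2L. It was 5.00 ± 2.57 points on 3L and 0.73 ± 1.16 on 3R (SD, n = 2). The reversals were 2L in bases covered in both replicates (-0.339 points) and 3R in the combined list (-1.29), with a terminal 2 Mb (-0.875), in clusters per Mb (-3.52) and without its most covered step (-2.87, an alternative chosen after seeing the data).

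Median scores reversed on 2L with a terminal 2 Mb (0.0076) and between replicates (-0.0096 to 0.0028), on 3L with 2 Mb (0.0039) and on 3R in the combined list (-0.0023). Median widths reversed with a terminal 500 kb on X (27.5 bp), 3L (111.5 bp) and 3R (241.5 bp), in the combined list on 2L (170 bp) and 3L (146 bp), and between replicates on 3L (-138 bp to 96 bp).

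The share of terminal clusters touching the other replicate moved from 65.2% on X, 53.1% on 2L, 59.7% on 3L and 67.7% on 3R to 52.1%, 36.4%, 47.5% and 54.7% among clusters at or above the median score. It moved to 59.7% on X, 44.4% on 2L and 49.6% on 3L when 50% had to be covered, to 61.3% on X with 500 kb and to 57.5% on 3R with 2 Mb. Members covered by each replicate numbered 7, 5, 6 and 4 on X, 2L, 3L and 3R at 80% coverage, and 35 on X and 31 on 3L at 1 bp. Ends of 500 kb held 10 on X, 9 on 2L and 7 on 3L, and ends of 2 Mb held 46, 36 and 35. The share of windows more covered than the terminal one went from 21.7% to 28.3% on 2L, 14.6% to 39.8% on 3L and 27.8% to 13.6% on 3R in windows of 500 kb. The causes of these changes were not tested, except that counts follow the length of the end and the strictness of the overlap.

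No paired analysis was possible because ChIP and input share numbers but no input values were analysed here. Depth is unknown, and uncovered stretches are not thereby shown to be free of the mark.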
